A study of Mus musculus with 17 samples.

Results

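Pcp4l1, Tuba8, Pmm1, Antxr2 and Ndrg1 are 5 genes with roles outside drug metabolism that rose strongly in the livers of wild type mice given TCDD. They were picked from the TCDD and corn oil arrays of wild type livers for their rise and their roles outside drug metabolism. The choice was among 18193 genes that each had 1 representative probe set. Their wild type TCDD differences are therefore a description and carry no test. By that difference they ranked 2nd, 5th, 7th, 44th and 54th. They are not the 5 largest risers outside drug metabolism, since Tnfrsf19 (4.21, log2) and Cyfip2 (4.17) rose more than Antxr2 and Ndrg1. Together the 5 genes are read by 11 of the 45037 gene probe sets of the array.

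Total RNA of whole liver was hybridised to Affymetrix mouse genome arrays, 17 in all and 1 per sample. In the knockout TCDD group (n = 3) and the knockout corn oil group (n = 3), male Ahr-/- mice on the C57BL/6J background, aged 10 weeks and supplied by The Jackson Laboratory, received TCDD or the corn oil vehicle. In the wild type TCDD group (n = 6) and the wild type corn oil group (n = 5), Ahr+/+ C57BL/6J males aged 15 weeks, bred in Kuopio in Finland from Jackson stock, received the same agents. TCDD was given once by gavage at 1000 µg/kg, and livers were taken 19 h after dosing. The knockout is germline, so every cell of the animal carries it, and age and source of the mice cannot be told apart from genotype. Whether every array came from its own mouse is not stated in the labels. The p-values thus rest on how far these samples spread, and that spread may be technical.

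TCDD (tetrachlorodibenzo-p-dioxin) is a persistent ligand of the aryl hydrocarbon receptor, AHR. On binding ligand the receptor leaves the cytosol, pairs with ARNT in the nucleus and binds DNA elements built on the core GCGTG, which switches on genes such as Cyp1a1, the classical dioxin-induced monooxygenase, and Tiparp, an ADP-ribosyltransferase that feeds back on the receptor. Liver is a main site of dioxin storage and toxicity in the mouse. None of the 5 genes encodes an enzyme of foreign compound metabolism. Pcp4l1 encodes a small protein related to the calmodulin-binding neuronal peptide Pcp4, and Tuba8 an alpha-tubulin found chiefly in muscle, testis and brain. Pmm1 encodes a phosphomannomutase that interconverts mannose phosphates, Antxr2 a membrane receptor for extracellular matrix that anthrax toxin also uses, and Ndrg1 a cytosolic protein induced by hypoxia and other stress.

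The promoters of the 3 genes with the highest wild type differences are shown because the receptor acts through a short DNA element near its targets. Each window runs from 250 bases before to 50 bases after the RefSeq transcription start, on the gene's own strand, in build GRCm38.p6. Capitals mark matches to GCGTG or its reverse complement CACGC, and to TGACNNNGC, the core of the antioxidant response element bound by NRF2, or its reverse complement GCNNNGTCA.
Pcp4l1, chr1:171196219-171196518, minus strand: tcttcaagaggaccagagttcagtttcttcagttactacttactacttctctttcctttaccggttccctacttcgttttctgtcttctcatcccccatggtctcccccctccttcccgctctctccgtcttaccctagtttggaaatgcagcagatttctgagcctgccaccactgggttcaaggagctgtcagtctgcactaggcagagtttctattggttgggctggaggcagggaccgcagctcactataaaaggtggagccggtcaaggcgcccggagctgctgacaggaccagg
Tuba8, chr6:121210484-121210783, plus strand: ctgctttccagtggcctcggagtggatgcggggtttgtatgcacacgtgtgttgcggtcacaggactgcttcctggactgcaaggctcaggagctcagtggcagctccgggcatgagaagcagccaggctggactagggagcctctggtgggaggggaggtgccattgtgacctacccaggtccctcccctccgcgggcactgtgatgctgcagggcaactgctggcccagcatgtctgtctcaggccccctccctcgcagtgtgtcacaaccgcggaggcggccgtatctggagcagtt
Pmm1, chr15:81960881-81961180, minus strand: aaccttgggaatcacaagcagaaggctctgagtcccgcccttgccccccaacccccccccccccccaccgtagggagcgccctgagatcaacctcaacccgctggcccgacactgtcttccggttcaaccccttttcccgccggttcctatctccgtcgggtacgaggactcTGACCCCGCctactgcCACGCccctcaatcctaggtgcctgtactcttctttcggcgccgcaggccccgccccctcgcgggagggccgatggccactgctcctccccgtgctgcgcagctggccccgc

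A window was found for 4 of the 5 genes, in a table of 32851 windows from 27025 genes. Of these 4, Pmm1 alone held GCGTG, which lay on the minus strand relative to the gene, 62 bases before the start. GCGTG lay in 32.4% of all windows on either strand. The Cyp1a1 window held it 54 bases and the Tiparp window 170 bases before the start. TNGCGTG, a longer form that contains GCGTG, was in none of the 4 windows, nor in the Cyp1a1 or Tiparp window. It was in 5.07% of all windows. TGACNNNGC lay in the Pmm1 window, 78 bases before the start on the gene's strand, and in 12.4% of all windows. The Antxr2 window (chr5:98030968-98031267, minus strand) held none of these motifs. GC content was 53.3% for Pcp4l1, 63.7% for Tuba8, 68% for Pmm1 and 73% for Antxr2, against a median of 52.7% and quartiles of 45.7% and 61.7% over all windows. Pmm1 and Antxr2 thus lay above the upper quartile, as did Tuba8. A match is a run of letters and not a measured binding site, and a window without one says nothing of sites elsewhere in the gene.

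All values below are deposited log2 expression levels. Array medians ran from 3.08 to 3.19, and a level at or under its array's median is treated as not measured above background. Hepatocyte markers such as albumin were above the array median on every array, 10 of 10. With TCDD in wild type livers 5 of these 10 fell and 0 rose, where 2.56% of all genes fell and 3.75% rose. The list averaged 14.42 to 14.57 per array in wild type TCDD livers and 14.57 to 14.72 in wild type corn oil livers, and its part in the results below was not tested. Wild type TCDD replicate 6 stood apart from the other arrays, with a residual SD of 0.319 against 0.124 to 0.173, and its Gapdh 3′ minus 5′ probe difference was 1.98 against -0.165 to -0.0112. Knockout TCDD replicate 1 stood apart from its group in Cyp1a1, which was 12.64 there, while knockout TCDD replicates 2 and 3 read 5.32 and 5.34. The Ahr probe set averaged 9.45 ± 0.04 in knockout TCDD livers and 9.50 ± 0.21 in knockout corn oil livers (SD, n = 3 each), 10.02 ± 0.37 in wild type TCDD livers (n = 6) and 9.89 ± 0.38 in wild type corn oil livers (n = 5). No source used here places that probe set inside or outside the deletion, so it checks no label.

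Pcp4l1 showed the clearest split of the 5 genes between wild type livers with and without TCDD. Its lowest, median and highest levels in wild type TCDD livers were 8.00, 8.41 and 8.69. In wild type corn oil livers it read 1.94, 1.93, 1.92, 2.67 and 2.09. Every corn oil array was thus below its own median, and no level of Pcp4l1 was measured without TCDD. In knockout livers it read 1.92, 1.92 and 1.93 with TCDD and 1.93, 1.93 and 1.92 with corn oil, the same near-constant low value. The wild type difference was 6.28 ± 0.14 (log2, SE), and with corn oil arrays counted at their medians it was at least 38.8-fold. The measured difference was 6.35 ± 0.13 without wild type TCDD replicate 6.

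Without the receptor no TCDD response of Pcp4l1 was detected. The knockout difference was -0.0046 (95% interval -0.41 to 0.40; limma adjusted p = 0.995). Cyp1a1 stood at 12.64 on knockout TCDD replicate 1, where Pcp4l1 was at 1.92. Knockout and wild type corn oil livers differed by -0.18 (-0.54 to 0.18; adjusted p = 1.0), both below the array medians.

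Tuba8 differed from Pcp4l1 in that its brighter probe set measured it without TCDD. The level there differed between knockout and wild type livers, which also differed in age and source of the mice. On its brighter probe set, 1419518_at, the lowest, median and highest levels in wild type TCDD livers were 9.50, 9.94 and 10.26. Wild type corn oil livers read 5.24, 5.30, 4.87, 4.88 and 4.88. The groups lay far apart, and the difference was 4.90 ± 0.16, or 29.9-fold, 5th among all genes by measured difference. Knockout TCDD livers read 7.84, 7.20 and 7.34, and knockout corn oil livers 7.98, 7.53 and 7.70. All 6 knockout arrays lay in the gap between wild type corn oil and wild type TCDD livers.

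With corn oil, Tuba8 was higher in knockout livers, which averaged 7.74 ± 0.23 (SD, n = 3), than in wild type livers, which averaged 5.03 ± 0.22 (SD, n = 5). The difference was 2.70 ± 0.19 (SE; 95% interval 2.30 to 3.11), a 6.52-fold difference with an adjusted p of 3.35e-06 by limma. The groups did not overlap, and leaving out any 1 array gave 2.58 to 2.81 with the call kept each time. Within scan day 1 it was 2.52 (adjusted p = 0.151, 2 arrays against 1), within scan day 2 it was 2.69 (adjusted p = 0.017, 1 array against 3), and with scan day as a block 2.62 (adjusted p = 8.03e-05). The wild type corn oil arrays also served to choose the gene, and a low level there favours its choice, so the test is not fully independent of the rule.

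TCDD did not move Tuba8 detectably in knockout livers, where the difference was -0.28 ± 0.21 (95% interval -0.73 to 0.17; limma adjusted p = 0.875). The level order was therefore wild type TCDD, then both knockout groups, which did not differ beyond their spread, then wild type corn oil. A dimmer probe set for Tuba8, 1446771_at, ran from 6.73 to 7.18 in wild type TCDD livers and from 2.35 to 2.46 in wild type corn oil livers. All 5 of those corn oil arrays were below their medians. Its wild type difference was 4.50 ± 0.30, and at least 3.81 with corn oil arrays counted at their medians.

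On that dimmer probe set the knockout corn oil livers read 3.18, 3.57 and 2.81, and the last of these was below its array median, as were all 5 wild type corn oil arrays. The fitted genotype difference of 0.76 ± 0.36 is thus set against background and gives no size, and it was not called (limma adjusted p = 0.590). The fitted difference was called without knockout TCDD replicate 3, at the same 0.76 and an adjusted p of 0.0157. That array read 4.57 on this probe set, where replicates 1 and 2 of its group read 2.45 and 2.55. It alone of its group was scanned on the third scan day. The other array of that day, wild type corn oil replicate 5, read 2.41, and the part of scan day was not tested.

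Pmm1 gave a clear signal in wild type TCDD livers and a flat low reading in the other 3 groups. On its brighter probe set, 1430780_a_at, the lowest, median and highest levels in wild type TCDD livers were 7.68, 7.91 and 8.47. Wild type corn oil livers read 3.60, 3.61, 3.45, 3.58 and 3.60, just above the array medians. Knockout livers read 3.64, 3.65 and 3.64 with TCDD and 3.65, 3.67 and 3.65 with corn oil. The wild type difference was 4.43 ± 0.11, or 21.6-fold, 7th among all genes by measured difference. The corn oil readings lay so near the array medians that they may be background, so this fold and rank are not firm sizes.

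The other Pmm1 probe set, 1424167_a_at, gave a wild type difference of 4.24 ± 0.15. It ran from 7.18 to 7.74 in wild type TCDD livers and from 2.65 to 3.54 in wild type corn oil livers, where 1 of 5 arrays was below its median. Both probe sets thus placed every wild type TCDD array above every other array. In knockout livers the TCDD differences were -0.011 (95% interval -0.34 to 0.32; limma adjusted p = 0.984) on the brighter and -0.14 (-0.57 to 0.28; adjusted p = 0.875) on the dimmer probe set. Between knockout and wild type corn oil livers they were 0.088 (-0.21 to 0.38; adjusted p = 1.0) and 0.28 (-0.10 to 0.66; adjusted p = 0.921).

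Antxr2, unlike Pcp4l1 and Pmm1, was well above background in every group and rose on top of a standing level. In wild type TCDD livers its lowest, median and highest levels were 9.77, 9.91 and 10.14. Wild type corn oil livers read 7.82, 8.06, 8.42, 7.71 and 8.15, and the groups did not overlap. The wild type difference was 1.89 ± 0.11, or 3.71-fold, 44th among all genes by measured difference. In bulk tissue, fewer cells of a type and less RNA per cell cannot be told apart. Endothelial markers as a list averaged 6.83 to 7.16 per array in wild type TCDD livers and 7.22 to 7.30 in wild type corn oil livers, and 3 of 8 fell. Stellate cell markers averaged 7.22 to 7.50 with TCDD and 7.06 to 7.64 with corn oil, and 1 of 8 fell. None of either list rose, against 3.75% of all genes higher and 2.56% lower. Their part in the result was not tested.

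Knockout TCDD livers read 8.83, 8.65 and 8.83 for Antxr2, and knockout corn oil livers 8.80, 8.52 and 8.72, so TCDD gave a difference of 0.09 ± 0.15 (95% interval -0.23 to 0.41; limma adjusted p = 0.875). With corn oil, knockout livers averaged 8.68 ± 0.14 (SD, n = 3) and wild type livers 8.03 ± 0.28 (SD, n = 5). The difference of 0.65 ± 0.13 (0.36 to 0.94), or 1.57-fold, passed with a limma adjusted p of 0.025. The groups did not overlap, which also held for both Pmm1 probe sets and Tuba8 1446771_at, none of them called. Like that of Tuba8, this contrast shares the wild type corn oil arrays with the choice of the gene.

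The genotype call for Antxr2 was lost under several settings. The adjusted p was 0.0510 with scan day as a block, 0.409 within scan day 1 (0.85) and 0.543 within scan day 2 (0.66). It was 0.143 without knockout corn oil replicate 1, 0.0849 without knockout corn oil replicate 3, 0.0510 without wild type corn oil replicate 1 and 0.0519 without wild type corn oil replicate 2. The difference stayed between 0.57 and 0.75 whichever array was left out.

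Over the 11 probe sets, 0 were called for TCDD in knockout livers, against 0.0133% of all gene probe sets (6 of 45037), and 0 had an unadjusted p under 0.05 by limma, against 1263 of all. For knockout against wild type with corn oil, 2 of 11 were called, both higher, against 0.873% of all gene probe sets called higher (393 of 45037, with 261 lower). After quantile normalization the split over all probe sets was 323 higher and 349 lower.

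**Figure D1:**
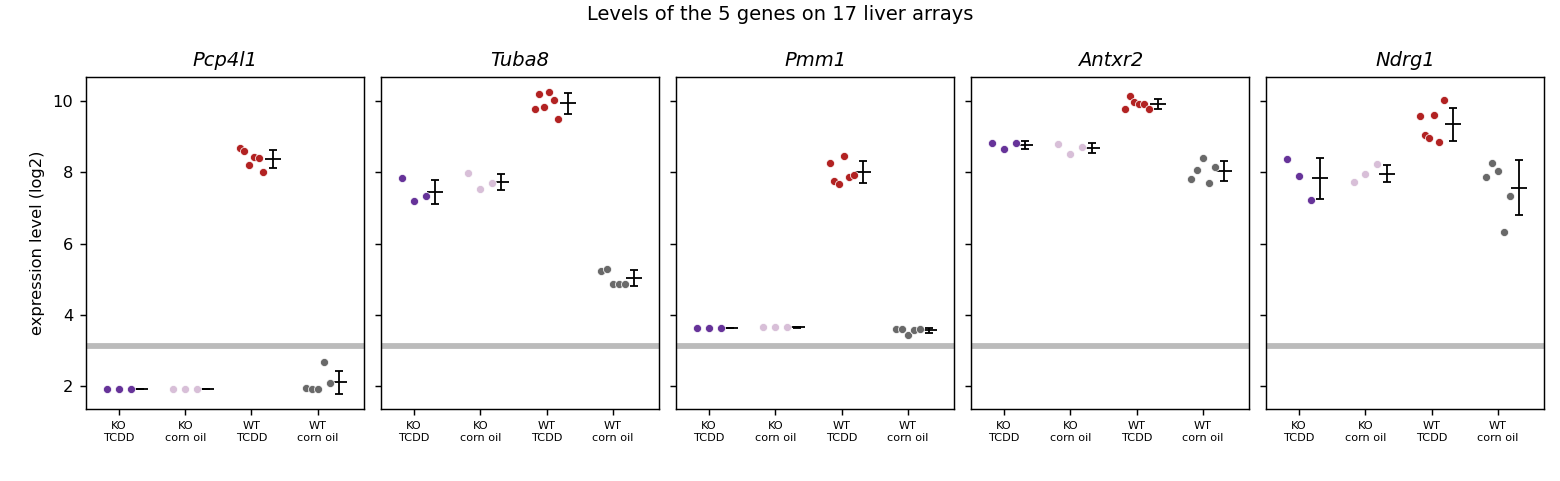
Expression level (log2) of the representative probe set of each gene on each of the 17 arrays, by group, with mean and SD as bars at the right of each group and the range of array medians as a grey band. Wild type TCDD arrays lay above all others for each gene, and the choice of the genes favours this against wild type corn oil arrays. Tuba8 in knockout livers, at 7.20 to 7.98, lay between the wild type groups.

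On the representative probe sets, Ndrg1 varied most between replicates of the 5 genes. On that probe set, 1456174_x_at, the lowest, median and highest levels in wild type TCDD livers were 8.86, 9.31 and 10.02. Wild type corn oil livers read 7.87, 8.27, 8.05, 6.33 and 7.33. The groups did not overlap, but the group SDs were 0.46 with TCDD and 0.77 with corn oil. The wild type difference was 1.78 ± 0.33, or 3.43-fold, 54th among all genes by measured difference. It was 1.64 ± 0.34 without wild type TCDD replicate 6 and 1.47 ± 0.27 without wild type corn oil replicate 4. The suffix _x_at marks probe sets that may also bind other transcripts.

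The other 3 Ndrg1 probe sets with a clear signal gave wild type differences of 1.89 ± 0.26 (1420760_s_at), 1.96 ± 0.36 (1423413_at) and 1.92 ± 0.34 (1450976_at). On these 3 and on 1456174_x_at, replicates 1, 4 and 6 were the highest of the wild type TCDD arrays, and replicate 4 was the lowest of the wild type corn oil arrays. Replicate 6 is also the array whose Gapdh probe difference was 1.98, and the part of that in its Ndrg1 level was not tested. The fifth, 1450977_s_at, was below the array median on every array, at 1.40 to 2.60 in wild type TCDD livers and 1.38 to 1.40 in wild type corn oil livers, and gives no fold.

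In knockout livers 1456174_x_at read 8.38, 7.91 and 7.22 with TCDD and 7.73, 7.95 and 8.23 with corn oil, and the groups overlapped. The difference was -0.13 (95% interval -1.10 to 0.83; limma adjusted p = 0.929). Replicate 1 was the highest knockout TCDD array on each of the 4 clear probe sets, at 8.14, 6.36, 8.05 and 8.38, and it is the array on which Cyp1a1 was 12.64. Without it, the knockout TCDD difference of 1456174_x_at was -0.40 ± 0.49 (adjusted p = 0.917). Whether that array's Cyp1a1 level and its Ndrg1 level go together was not tested. Ndrg1 in knockout corn oil livers was 0.40 (-0.46 to 1.26) from wild type corn oil livers (adjusted p = 1.0).

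**Figure D2:**
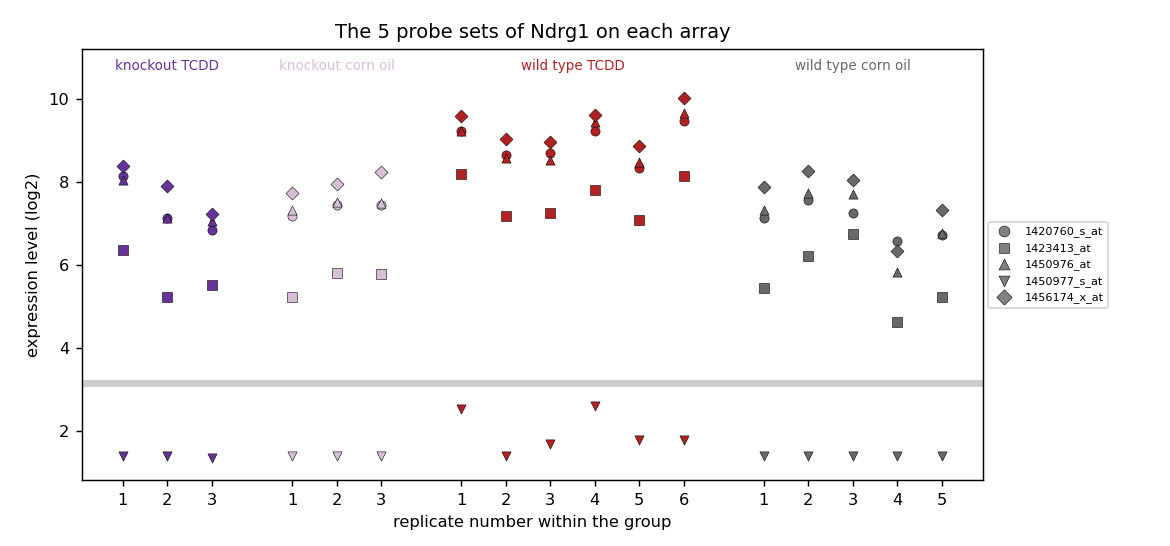
Expression level (log2) of the 5 Ndrg1 probe sets on each array, by group and replicate, with the range of array medians as a grey band. On the 4 probe sets above the band, wild type TCDD replicates 1, 4 and 6 were the highest of their group, and 1450977_s_at stayed at or under 2.60.

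The difference between the TCDD effect in knockout and in wild type livers shares the choosing contrast and is described only. It was -6.28 ± 0.23 for Pcp4l1, -5.18 ± 0.26 for Tuba8, -4.44 ± 0.19 for Pmm1, -1.80 ± 0.19 for Antxr2 and -1.91 ± 0.56 for Ndrg1, on the representative probe sets.

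The differences were also taken without the array that stood apart in each TCDD group. Without knockout TCDD replicate 1, the knockout TCDD differences of the representative probe sets were -0.0044 for Pcp4l1, -0.47 for Tuba8, -0.011 for Pmm1, 0.06 for Antxr2 and -0.40 for Ndrg1, with limma adjusted p from 0.917 to 0.997. Without wild type TCDD replicate 6, the wild type differences were 6.35 for Pcp4l1, 4.99 for Tuba8, 4.44 for Pmm1, 1.92 for Antxr2 and 1.64 for Ndrg1.

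**Figure D3:**
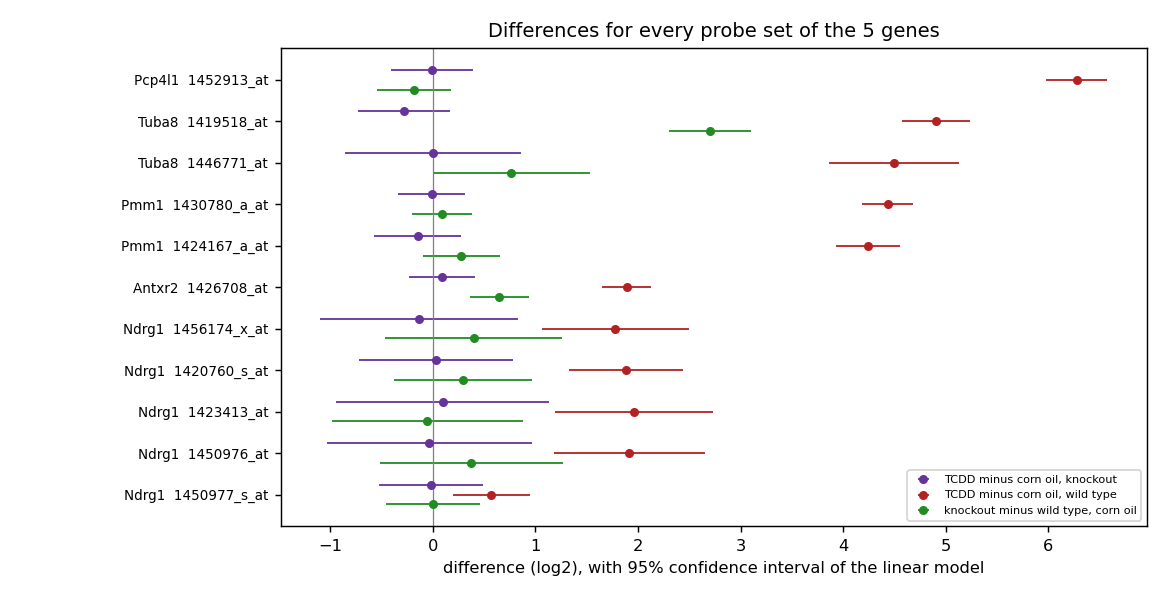
Differences (log2) with 95% confidence intervals for all 11 probe sets: TCDD minus corn oil in knockout livers, the same in wild type livers, and knockout minus wild type with corn oil. The knockout TCDD intervals all include 0, while Tuba8 1419518_at at 2.70 and Antxr2 at 0.65 stand above 0 for genotype.

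Genes of related function were counted around each of the 5 genes. Over 5 lists with 119 measured genes, the 5 genes left out, 7 rose and 3 fell with TCDD in wild type livers, with a median difference of 0.0060 against 0.0092 over all genes. Over all genes, 3.75% rose (683 of 18193) and 2.56% fell (466). These shares also stand beside the counts per list below, and nothing is read from those counts. In knockout livers 0 of the 119 were called, against 0.011% of all genes. In those livers 3 had an unadjusted p under 0.05 by limma, against 1263 of all 45037 gene probe sets. For genotype 0 were called, against 1.4% higher and 0.934% lower over all genes. There 16 had an unadjusted p under 0.05 by limma, against 3828 of the 45037 gene probe sets. Both unadjusted counts set the brightest probe set of each list gene against all probe sets, so they are not like for like.

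The calmodulin list, which holds calmodulins, their kinases and phosphatase and IQ-motif proteins, had 1 riser among 18 measured genes and a median of 0.0064. That gene was Camkk2, a kinase that activates AMPK, at 7.33 ± 0.28 in wild type TCDD livers (SD, n = 6) and 6.60 ± 0.06 in wild type corn oil livers (SD, n = 5). Its difference was 0.73 ± 0.11 (limma adjusted p = 0.0012), though the call was lost within either scan day alone. Pcp4, the relative of Pcp4l1, read 3.42 in both groups.

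Of 25 measured tubulins and tubulin cofactors, 2 rose and 1 fell. The chaperone Tbca, which holds beta-tubulin before assembly, rose by 0.36 ± 0.07 (limma adjusted p = 0.0065), Tbcd, a partner cofactor, by 0.41 ± 0.10 (0.0344), and Tubg1, the gamma-tubulin of microtubule nucleation, fell by 0.43 ± 0.11 (0.0362). Among alpha-tubulins, Tuba1a differed by 0.15 ± 0.12 (adjusted p = 0.886) and Tuba4a by 0.016 ± 0.044 (adjusted p = 0.918). The Tuba1b and Tuba1c genes had no probe set of their own here.

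Of 27 measured genes of mannose and fucose supply, Alg3 rose by 0.51 ± 0.12 (limma adjusted p = 0.0288) and Alg9 by 0.58 ± 0.15 (0.0383), both mannosyltransferases of the N-glycan precursor, and 0 fell. Pmm2, the other phosphomannomutase, differed by -0.46 ± 0.23 (95% interval -0.97 to 0.04; adjusted p = 0.523). Of 20 anthrax receptor, matrix and partner genes, Itgb1, the beta-1 integrin subunit, fell by 0.33 ± 0.08 (adjusted p = 0.0276), and Antxr1, the close relative of Antxr2, was below the array medians.

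Of 29 measured NDRG and hypoxia-responsive genes, 2 rose and 1 fell. Pgk1, a glycolytic kinase, rose by 0.33 ± 0.07 (limma adjusted p = 0.0106), Higd1a, a mitochondrial hypoxia-induced protein, by 0.31 ± 0.07 (0.0155), and Ndrg2, an NDRG family member, fell by 0.29 ± 0.05 (0.0050). Ndrg3 differed by -0.07 ± 0.11 (adjusted p = 0.890). Leaving out single arrays ended the wild type call for Alg9 in 13 of 17 cases, Tubg1 in 9, and Alg3, Itgb1 and Tbcd in 6 each.

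**Figure D4:**
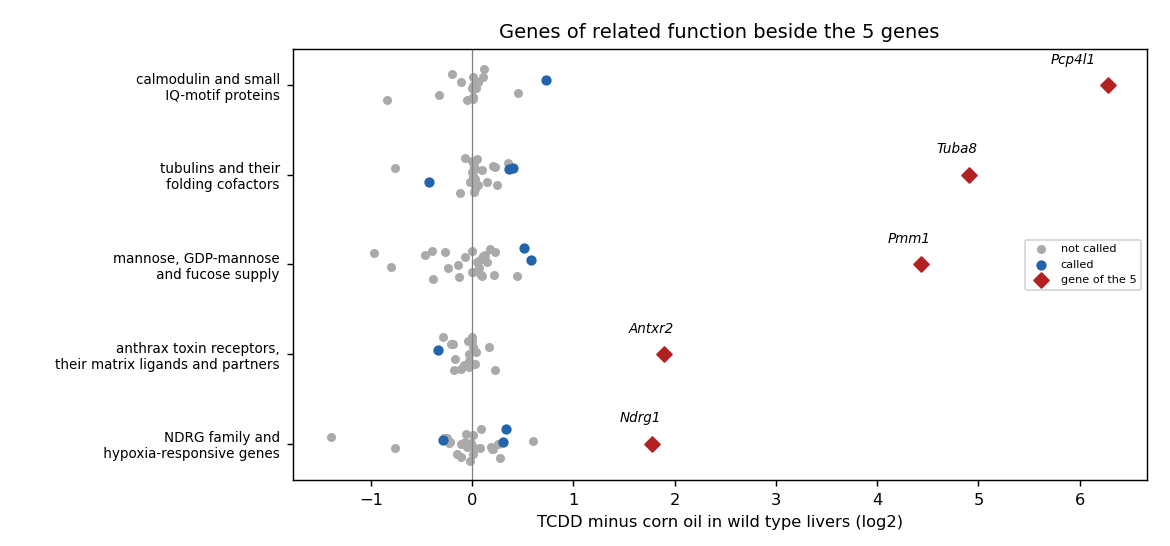
TCDD minus corn oil in wild type livers (log2) for the measured genes of each list (grey, not called; blue, called) beside the gene of the 5 it was built around (red diamond). Called list genes lay between -0.43 and 0.73, and Antxr2 at 1.89 and Ndrg1 at 1.78 lay beyond them. The 5 genes were chosen for their rise in this contrast, so that gap follows from the choice and is no finding.

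Along the chromosomes, 50 neighbours were examined, the 5 nearest measured genes on each side of each gene. With TCDD in wild type livers, 4 rose and 1 fell, against 3.75% higher and 2.56% lower over all genes. They lay beside 2 of the 5 genes, Tuba8 and Pcp4l1, and the 30 neighbours of Pmm1, Antxr2 and Ndrg1 had none. In knockout livers 0 of 50 were called, against 0.011% of all genes, and for genotype 1 was higher, against 1.4%. Counts of 0 of 30, 0 of 50 and 1 of 50 are close to those shares, and nothing is read from them. These neighbours were chosen by position and named here after their values were seen where they are not the nearest on a side.

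Usp18, a protease that removes the interferon-induced modifier ISG15, lies next to Tuba8. It ran from 8.26 to 9.27 in wild type TCDD livers and from 6.18 to 7.00 in wild type corn oil livers, and the groups did not overlap. The difference was 2.17 ± 0.26 (limma adjusted p = 0.000119). In knockout livers it read 5.66, 4.89 and 6.37 with TCDD and 6.57, 6.41 and 6.16 with corn oil. The wild type call held within scan day 2 (2.24; adjusted p = 0.0210) and was lost within scan day 1 (2.30; 0.219).

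On the other side of Tuba8, Pex26, a peroxisome biogenesis factor, differed by 0.54 ± 0.13 (limma adjusted p = 0.0312), a call lost in 8 of 17 leave-one-out fits. On the same side as Usp18, Slc6a12, a betaine and GABA transporter, rose by 0.52 ± 0.10 (limma adjusted p = 0.0055). Also on that side, Slc6a13, a GABA transporter of the same family, fell by 0.43 ± 0.06 (0.000389). Genes beside Tuba8 thus went both ways. For genotype, Atp6v1e1, a subunit of the vacuolar proton pump, was higher in knockout corn oil livers, at 10.19 ± 0.09 (SD, n = 3), than in wild type corn oil livers, at 9.78 ± 0.15 (SD, n = 5), by 0.41 ± 0.08 (adjusted p = 0.0152). That call was lost within scan day 1 (0.48; 0.369) and without knockout corn oil replicate 1 (0.38; 0.0937) or replicate 3 (0.39; 0.0633).

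Nr1i3, the nuclear receptor CAR that senses foreign compounds, lies next to Pcp4l1. It ran from 11.31 to 11.70 in wild type TCDD livers and from 9.19 to 10.16 in wild type corn oil livers. The difference was 1.81 ± 0.16 (limma adjusted p = 9.23e-06). In knockout livers it read 9.32, 9.02 and 8.86 with TCDD and 9.38, 9.62 and 8.89 with corn oil. The wild type call was lost within scan day 1 (1.79; adjusted p = 0.0706) and kept within scan day 2 (1.94; 0.00278). The other nearest neighbours, Sdhc beside Pcp4l1, Csdc2 and 1700029P11Rik beside Pmm1, Gk2 and Prdm8 beside Antxr2, and Ccn4 and St3gal1 beside Ndrg1, were not called.

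**Figure D5:**
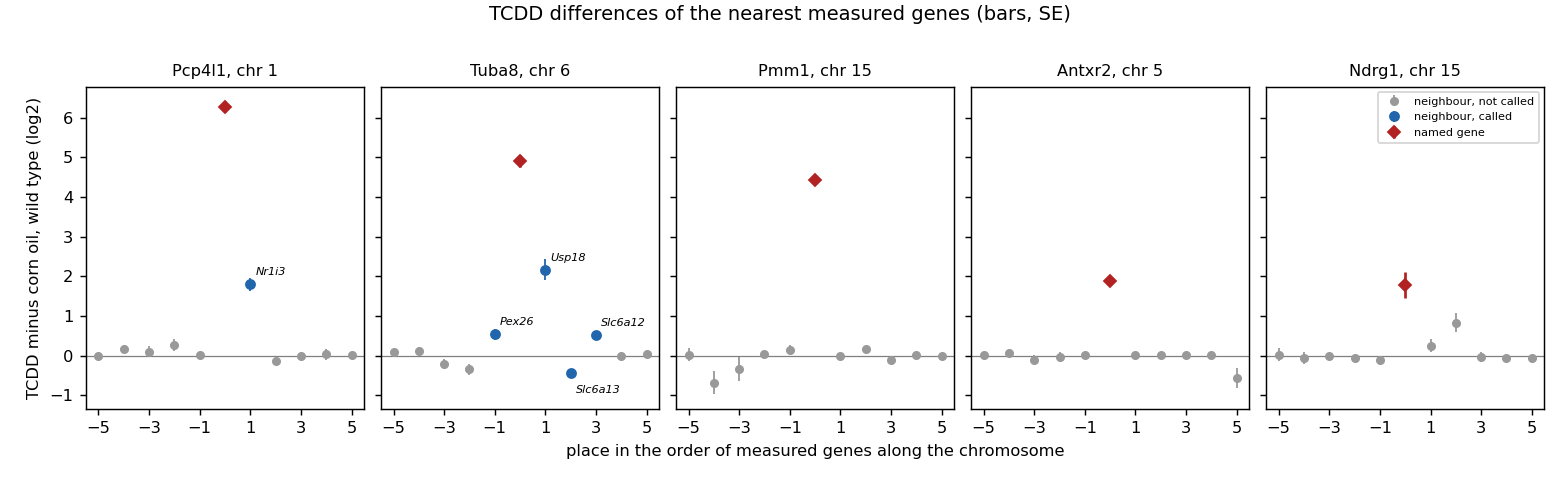
TCDD minus corn oil in wild type livers (log2, bars SE) for each gene (red diamond) and its 5 nearest measured genes on each side, placed by order along the chromosome. Usp18 at 2.17 and Nr1i3 at 1.81 are the called neighbours (blue) above 1; neighbours of Pmm1, Antxr2 and Ndrg1 were not called.

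The genes most like each of the 5 were found from the root mean square difference of log2 levels over all 17 arrays, each profile centred on its own mean. Nearest to Pcp4l1 were Cyp1b1 (0.298), a dioxin-induced monooxygenase, and Tiparp (0.517). Nearest to Pmm1 were Fmo2 (0.322), a flavin monooxygenase, Cyfip2 (0.339), an actin regulator, and Tnfrsf19 (0.344), a TNF receptor family member. Nearest to Tuba8 were Pla2g12a (0.818), a secreted phospholipase, Nqo1 (0.909), a quinone reductase, and Fmo2 (0.943). The nearest gene to Tuba8 was thus farther from it than the nearest gene was from any of the other 4.

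Nearest to Antxr2 were Srxn1 (0.232), which repairs oxidised peroxiredoxins, Lmo7 (0.277) and Ugdh (0.277), which makes UDP-glucuronate. Nearest to Ndrg1 were Gstm2 (0.435), a glutathione transferase, Wipf3 (0.463) and Nags (0.503), an enzyme that makes the urea cycle activator. Among the 5 genes themselves, Pmm1 was the third nearest of all genes to Pcp4l1 (0.985), and Antxr2 was the seventh nearest to Ndrg1 (0.523). These distances share arrays, labels and the choice on the wild type rise, and carry no test.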

How the data were processed

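Liver RNA was measured on 17 arrays in 4 groups, taken from the sample titles. The values are the deposited log2 expression levels, with 1 value for each probe set on each array, and the authors had normalized them across arrays. Tools named in the submitters' processing notes are RMA, GCRMA and affy 1.5.8, and no source used here says which of them made the values. Scan settings in other deposited files gave only the scan day (3 days). The number of arrays limits the precision, and no detection calls were used.

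Of 45101 probe sets, 64 controls were left out. The other 45037 were fitted in limma 3.58.1 under R 4.3.3 with a mean for each group, moderated variances and 13 residual degrees of freedom. Calls are a two-sided Benjamini-Hochberg adjusted p under 0.05 over all probe sets. Among probe sets naming 1 gene alone, the one with the highest mean stands for that gene (18193 genes). The code was tested on simulated data, and tables were made with Python 3.11.15.

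The 5 genes and the lists of related genes were chosen with earlier results of these data known. Named genes are all 5 genes with each probe set, up to 3 called genes with the largest differences per list, close sequence relatives, the nearest measured gene on each side, and the 3 genes most alike in pattern. Gene order and promoters come from RefSeq on GRCm38.p6. Alternatives were quantile normalization, median centring, array weights, scan day, a replicate block, a filter on level, limma's trend, a fit on the groups compared and leaving out each array.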

Additional observations from a re-analysis of the deposited data

Results flagged for a closer look

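Among 22 groups of 4 to 10 arrays for the 11 probe sets, 3 held an array far from the others, where chance alone gives about 1 in 20. Pcp4l1 was 2.67 on wild type corn oil replicate 4, the highest of 5. Pmm1 was 2.65 on wild type corn oil replicate 1 for 1424167_a_at and 3.45 on wild type corn oil replicate 3 for 1430780_a_at, the lowest of 5 in each case. The first 2 values lie below the array medians.

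The TCDD effect in knockout and wild type livers was compared for family members and the nearest gene on each side of the 5 genes. Limma's test of the difference itself (knockout minus wild type) was used. The TCDD effect differed for Nr1i3, by -2.03 (limma adjusted p = 0.00157), and for Usp18, by -2.91 (limma adjusted p = 0.00306). The fit also gave this difference for genes named for a wild type call or for their likeness to the 5 genes. Those values are not read as tests, since the wild type contrast chose the genes. Among the neighbours named in this way, the difference was 0.49 for Slc6a13 and -0.50 for Slc6a12.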

How the results depend on the processing

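The wild type TCDD fit called 1882 probe sets, 456 within scan day 1 and 564 within scan day 2, and 1466 to 1866 without single arrays. The knockout TCDD fit called 6, but 51 with array weights, 1 with scan day as a block, 255 within scan day 2, 2 above the median level, and 1 to 34 without single arrays. It called 0 with a replicate block (2103 at an unadjusted p under 0.05) and 0 on the groups compared alone (5516). The genotype fit called 654, but 1310 with array weights, 294 within scan day 1, 347 with the replicate block and 404 to 780 without single arrays. The cause was not tested, except that single-day fits hold fewer arrays.

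Deviations of same-numbered samples from their group means correlated at -0.282 to 0.1. Samples with different numbers were not compared in this way, so these values cannot decide whether the numbers pair samples. The replicate block ended the genotype call of Antxr2 (adjusted p = 0.128) and of Atp6v1e1 (0.0800), and the wild type TCDD calls of Alg9, Higd1a, Itgb1, Ndrg2, Pex26, Tbcd and Tubg1. No direction of a called result reversed. For the 11 probe sets, 866 of the recomputed differences kept their side of the threshold or moved by less than the spread, 10 lost the call, 1 gained it and 6 moved. For other named genes 1203 kept it, 95 lost it and 6 gained it. Leaving out an array of a group outside a comparison cannot change that difference, and differences that stayed uncalled count as kept. Part of the kept results was thus fixed in advance. Without wild type TCDD replicate 6, a setting added after the data were seen, 12 of 15 nearest genes kept their place. Levels near the array medians limit what can be said of Pcp4l1 and Pmm1 without TCDD.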
